A study of Homo sapiens with 18 samples.

Results

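The 46 human genes whose symbols begin with HNRNP, SRSF, SF3A, SF3B or SNRP encode heterogeneous nuclear ribonucleoproteins (hnRNPs), serine/arginine-rich (SR) splicing factors, subunits of splicing factor 3 and proteins of the small nuclear ribonucleoproteins (snRNPs). They were taken by symbol from the annotation of the array, older HNRP and SFRS names included, out of 11963 genes that had a probe set naming 1 gene only. The set held 18 hnRNP genes, 11 SNRP genes, 9 SRSF genes, 5 SF3B genes and 3 SF3A genes. Of 125 probe sets with such a symbol, 19 named several genes and 1 named the pseudogene HNRNPA3P1, and these were left out, which left 105 probe sets. Through that step 9 further genes had no probe set of their own and are given here by name only. They were SRSF2, SRSF9, SNRPN, HNRNPH2, HNRNPA1L2 and HNRNPCL1 to HNRNPCL4. Each gene was represented by its probe set with the highest mean over all 18 arrays.

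The arrays measured total RNA of U251, an established human glioblastoma line, on an expression array that reads labelled RNA with sets of short probes, most of them near the 3' end of a transcript. The groups were siMPS1 (cells transfected with an siRNA against MPS1, the spindle checkpoint kinase encoded by TTK), siNeg (cells transfected with a negative-control siRNA) and Control (cells that were not transfected). Each was sampled at 6, 24 and 48 h with 2 arrays, which gave 9 groups, and 2 pmol of siRNA was used in the transfections per the labels. The sources used here name neither the siRNA sequences nor how many siRNAs were used, and they do not say if replicates were grown as separate cultures. P-values therefore measure the spread between these arrays, which may be technical.

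Pre-mRNA splicing is carried out by the spliceosome, which assembles on each intron from snRNPs. The SNRP genes encode the ring of Sm proteins that most spliceosomal snRNPs share and proteins particular to the U1 or U2 particle. SF3A and SF3B are the multi-subunit factors that help the U2 particle to hold the branch site. SR proteins bind exonic sequences and mostly promote the use of nearby splice sites, while hnRNPs coat nascent transcripts and often act against them. Many SR protein and hnRNP genes limit their own level through exons whose inclusion sends the transcript to decay.

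TTK, the targeted gene, had log2 signals between 4.07 and 5.23 on the 6 siMPS1 arrays, against 5.48 to 6.92 on the 6 siNeg arrays and 5.34 to 7.13 on the 6 Control arrays, and at each time both siMPS1 arrays lay below all others. The mesenchymal and stem markers VIM, NES, CD44 and SOX2 were above the median signal of the array on 18 of 18 arrays, the astrocyte marker GFAP on 3 and S100B on 0, and the 10 markers of epithelial, blood and neuronal cells measured here on 0. Replicate arrays correlated at 0.983 to 0.990 across the 7828 genes kept for testing, as described below. The siMPS1 arrays at 48 h stood apart in measures of the RNA. Their log2 ratio of 3' to 5' signal for ACTB was 0.87 and 0.92, against 0.10 and 0.14 in siNeg and 0.16 and 0.24 in Control, and that for GAPDH averaged 0.29, against 0.05 and -0.03. Their log2 signal of 18S ribosomal RNA averaged 11.66, beside means of 10.30 for siNeg and 10.89 for Control. At 24 h it was the siNeg arrays that stood out, with a mean 18S signal of 11.90 beside 11.13 in siMPS1 and 10.83 in Control. The siNeg arrays at 48 h stood out as well, with the lowest mean 18S signal of the 9 groups. Their log2 signal of the control probe set for dap was 6.39 and 6.71, beside means of 8.61 in siMPS1 and 8.35 in Control. Whether these measures contributed to the results at 48 h was not tested.

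The probe sets of all 46 genes lay above the median signal of each of the 18 arrays, and all 46 were among the 7828 genes kept after the 40% of probe sets with the lowest means were left out. Changes are differences of log2(signal + 3) between group means, with the SE of a limma fit to all 18 arrays, and a gene was called when its p-value, adjusted by the method of Benjamini and Hochberg over the 7828 genes, was under 0.05. The arrays read RNA from whole cultures, so fewer cells expressing a gene and less RNA per cell cannot be told apart.

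In siMPS1 cells relative to siNeg cells, 7 of the 46 genes were called at 6 h (2 higher, 5 lower), where 7.70% of all genes were called, 3.45% higher and 4.25% lower. At 24 h the count was 12 (9 higher, 3 lower), beside a background of 10.9%, 5.14% higher and 5.81% lower. At 48 h it was 20 (5 higher, 15 lower), beside 29.2% of all genes called in either direction, 15.7% higher and 13.5% lower. The median change of the 46 genes was 0.01, 0.09 and -0.07 at 6, 24 and 48 h, and that of all genes was 0.01, 0.00 and 0.03. Over the 3 times, 18 of the 46 genes were called at none, 19 at 1, 7 at 2 and 2 at all 3. Counts over times, here and below, were not made for all genes and so have no background. Both genes called at all 3 times encode SR proteins, SRSF3 and SRSF4, and both were lower in siMPS1 each time. The 18 genes called at no time were SRSF1, SRSF8, SNRPA1, SNRPD1, SNRPD2, SNRPD3, SNRPE, SF3A2, SF3B1, SF3B2 and the hnRNP genes A2B1, A3, C, H1, H3, K, UL1 and UL2, with changes between -0.35 and 0.33.

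**Figure D1:**
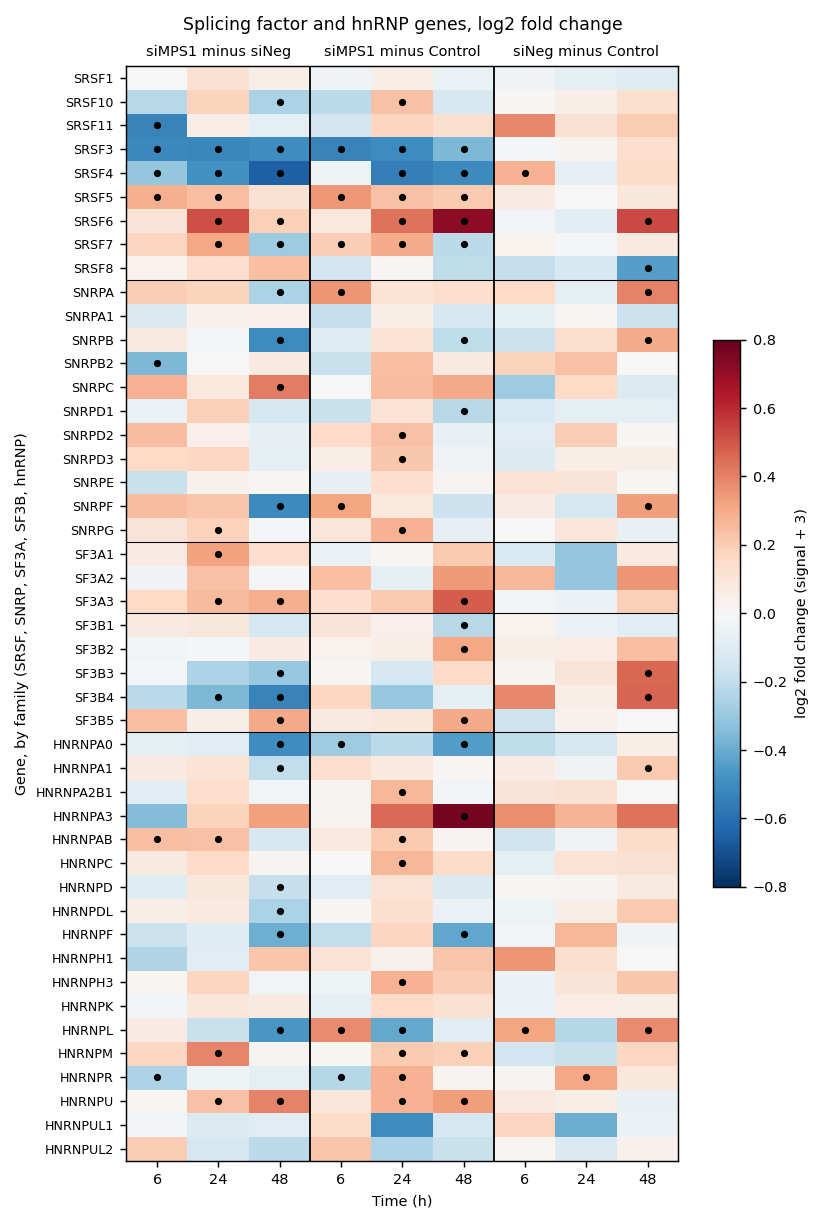
Log2 fold changes (colour, on the log2(signal + 3) scale) of the 46 genes, 1 per row and grouped by family, for siMPS1 minus siNeg, siMPS1 minus Control and siNeg minus Control at 6, 24 and 48 h; dots mark calls. SRSF3 is the row that is lower with a dot in all 6 siMPS1 columns, and the 48 h column of siMPS1 minus siNeg holds 15 dots in lower genes and 5 in higher genes.

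SRSF3 encodes a small SR protein that binds pyrimidine-rich RNA and also takes part in mRNA export. Its log2 signal at 6 h was 10.08 and 10.05 in siMPS1, against 10.57 and 10.59 in siNeg and 10.56 and 10.63 in Control. At 24 h it was 10.10 and 10.04 in siMPS1, against 10.56 and 10.62 in siNeg and 10.55 and 10.59 in Control. At 48 h it was 10.14 and 10.14 in siMPS1, against 10.62 and 10.65 in siNeg and 10.41 and 10.60 in Control. The siMPS1 arrays were the 2 lowest at every time, with no overlap with either control group. Relative to siNeg, SRSF3 fell by 0.52 (SE 0.06, adjusted p = 0.000125), 0.52 (adjusted p = 1.8e-05) and 0.49 (adjusted p = 7.48e-06) at 6, 24 and 48 h, or to 69.9%, 69.7% and 71.0% of the signal in siNeg. Relative to Control it fell by 0.53, 0.50 and 0.36. All 3 probe sets of SRSF3 were lower in siMPS1 than in either control group at all 3 times, and 2 of them showed a larger change at 48 h, of -0.98 and -0.93 relative to siNeg.

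SRSF4, a longer SR protein with an extended serine/arginine domain, was read by 1 probe set. At 6 h the siMPS1 arrays gave 9.07 and 9.16, against 9.50 and 9.36 in siNeg and 9.11 and 9.19 in Control. The siMPS1 arrays thus lay below those of siNeg and among those of Control, whose own arrays were below siNeg. At 24 h siMPS1 gave 8.68 and 8.69, against 9.14 and 9.20 in siNeg and 9.28 and 9.18 in Control. At 48 h siMPS1 gave 8.68 and 8.54, against 9.18 and 9.35 in siNeg and 9.09 and 9.16 in Control. From 24 h on both siMPS1 arrays were below all 4 others. Relative to siNeg, SRSF4 fell by 0.31 (SE 0.07, adjusted p = 0.0201), 0.48 (adjusted p = 0.000386) and 0.66 (adjusted p = 4.08e-06), or to 80.6%, 71.5% and 63.5% of the siNeg signal. Relative to Control the change was -0.03 at 6 h, which was not called, and SRSF4 fell by 0.55 at 24 h and by 0.51 at 48 h. The call at 6 h was lost without either siMPS1 array or without siNeg replicate 1 at that time.

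SRSF6, another SR protein that acts on exonic enhancers, moved the other way at 24 h. Its log2 signal at that time was 9.18 and 9.14 in siMPS1, against 8.71 and 8.58 in siNeg and 8.76 and 8.70 in Control, so that both siMPS1 arrays were above all others. The rise was 0.52 relative to siNeg (SE 0.06, adjusted p = 3.53e-05), which is 143% of the siNeg signal, and 0.43 relative to Control. At 48 h siMPS1 gave 8.88 and 8.88, against 8.68 and 8.70 in siNeg and 8.19 and 8.14 in Control, a rise of 0.19 relative to siNeg (adjusted p = 0.0299) and of 0.72 relative to Control (adjusted p = 3.53e-07). The 48 h result relative to siNeg depended on the probe set. The other probe set of SRSF6 was lower in siMPS1, by -0.70, and the mean of both gave -0.25 (adjusted p = 0.0175), a call in the opposite direction. The call was also lost when any 1 of the 4 arrays compared was left out, with median centring and when the other groups stayed out of the fit. The rise relative to Control was 0.22 with the mean of probe sets (adjusted p = 0.0362).

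The promoters of these 3 SR protein genes are shown because SRSF3 and SRSF4 were lower in siMPS1 than in siNeg at all 3 times and SRSF6 had the largest rise of the 46 genes in that comparison. The sequences are from RefSeq on GRCh38.p14 and run 5' to 3' on the strand of the gene, from 250 bases before the transcript start to 50 bases after it. SRSF3 lies at chr6:36594112-36594411 on the plus strand, SRSF4 at chr1:29181851-29182150 on the minus strand and SRSF6 at chr20:43457646-43457945 on the plus strand. Capitals mark matches, on either strand, to 7 short motifs listed further on.
SRSF3: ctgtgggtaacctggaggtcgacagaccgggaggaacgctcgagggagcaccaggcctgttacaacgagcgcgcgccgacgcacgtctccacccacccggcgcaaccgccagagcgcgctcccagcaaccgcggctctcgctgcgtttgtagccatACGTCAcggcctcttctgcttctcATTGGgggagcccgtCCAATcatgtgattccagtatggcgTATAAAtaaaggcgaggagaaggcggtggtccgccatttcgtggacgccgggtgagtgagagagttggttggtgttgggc
SRSF4: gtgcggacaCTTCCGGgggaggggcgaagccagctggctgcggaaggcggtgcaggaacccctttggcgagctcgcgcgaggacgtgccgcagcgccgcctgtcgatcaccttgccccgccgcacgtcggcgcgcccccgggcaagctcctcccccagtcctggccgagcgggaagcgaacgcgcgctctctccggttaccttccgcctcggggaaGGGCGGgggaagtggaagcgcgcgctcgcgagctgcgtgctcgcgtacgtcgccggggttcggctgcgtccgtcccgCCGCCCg
SRSF6: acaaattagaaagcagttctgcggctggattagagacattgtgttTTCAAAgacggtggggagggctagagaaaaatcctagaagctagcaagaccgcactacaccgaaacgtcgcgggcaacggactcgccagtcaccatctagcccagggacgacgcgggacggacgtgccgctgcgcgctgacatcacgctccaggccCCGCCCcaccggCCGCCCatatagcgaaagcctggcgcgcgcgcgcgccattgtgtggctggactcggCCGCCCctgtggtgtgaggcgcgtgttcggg
The SRSF3 window held a TATAAA match that begins 30 bases before the start, 2 CCAAT matches in opposite orientation that begin 70 and 55 bases before it, and 1 TGACGT match that begins 94 bases before it. The SRSF4 window held neither of the first 2 motifs, but 2 GGGCGG matches and 1 CCGGAAG match, and that of SRSF6 held 3 GGGCGG matches and 1 TTTGAA match. A match describes letters in a window and is not evidence that a factor binds there.

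SRSF5, which encodes an SR protein first known from insulin-treated rat liver, rose in siMPS1 relative to siNeg at 6 h by 0.28 (SE 0.06, adjusted p = 0.0153) and at 24 h by 0.24 (adjusted p = 0.0226). The 6 h arrays gave 9.20 and 9.26 in siMPS1, against 8.98 and 8.91 in siNeg and 8.93 and 8.82 in Control. At 48 h the change was 0.12 and was not called. Relative to Control it rose by 0.35, 0.24 and 0.21, and was the 1 gene of the 46 called higher at all 3 times. With median centring the 6 h change relative to Control was 0.15 and was not called. Relative to siNeg the call was lost without siMPS1 replicate 2 or either siNeg array at 6 h, and without replicate 1 of either group at 24 h. The 6 h call was lost also with median centring and with the mean of probe sets, which gave 0.18, and the 24 h call when the other groups stayed out of the fit.

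SRSF7, which encodes an SR protein with a zinc knuckle, was the 1 gene called in opposite directions at different times relative to siNeg. At 24 h its arrays gave 9.92 and 10.07 in siMPS1, against 9.69 and 9.69 in siNeg and 9.73 and 9.66 in Control. At 48 h they gave 9.56 and 9.60 in siMPS1, against 9.89 and 9.85 in siNeg and 9.80 and 9.79 in Control. The siMPS1 arrays were thus above both control groups at 24 h and below both at 48 h. The rise at 24 h was 0.31 (SE 0.06, adjusted p = 0.00233), and at 48 h SRSF7 fell by 0.28 (adjusted p = 0.0013). Its probe sets differed at all 3 times. With their mean the rise at 24 h was 0.18 (adjusted p = 0.114) and the call was lost. At 48 h the changes relative to siNeg were -0.28 for the one used and 0.51, -0.68 and 0.20 for the others.

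Of the other SR protein genes, SRSF11 fell at 6 h. Its arrays gave 9.23 and 9.37 in siMPS1, against 9.88 and 9.79 in siNeg and 9.37 and 9.53 in Control. The siMPS1 arrays lay below those of siNeg and met those of Control, and the change was -0.53 relative to siNeg (SE 0.13, adjusted p = 0.0191) and -0.15 relative to Control, which was not called. The siNeg call was lost when any 1 of the 4 arrays was left out and with the mean of probe sets, which gave -0.33. SRSF10, an SR-like protein that turns into a splicing repressor when it loses its phosphates, gave 8.15 and 8.15 in siMPS1 at 48 h, against 8.38 and 8.43 in siNeg and 8.32 and 8.24 in Control, and fell by 0.25 relative to siNeg (adjusted p = 0.0148). SRSF1, the best studied SR protein, showed changes between -0.05 and 0.12 relative to both control groups with the probe set used, none of them called. A second probe set of it gave -0.82 at 48 h relative to siNeg and another gave -0.05.

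**Figure D2:**
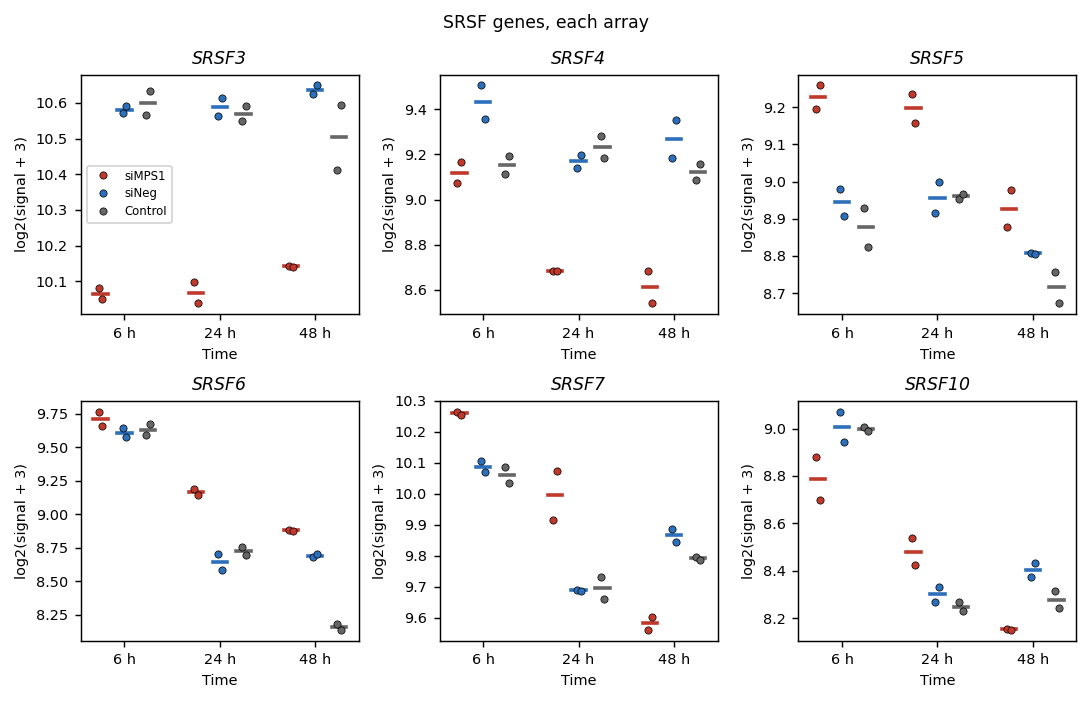
Log2(signal + 3) of 6 SRSF genes on each array (points) with group means (bars), by time, for siMPS1 (left at each time), siNeg and Control; the vertical axes differ between genes and do not start at 0. SRSF3 in siMPS1 stayed between 10.04 and 10.14 while all siNeg and Control arrays lay at 10.41 or above, and SRSF6 was lower at 24 and 48 h than at 6 h in all 3 treatments.

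Among the 11 SNRP genes, 1 was called at 6 h relative to siNeg, 1 at 24 h and 4 at 48 h, or 9.09%, 9.09% and 36.4%, beside 7.70%, 10.9% and 29.2% of all genes. The gene called at 6 h was SNRPB2, which encodes a protein of the U2 particle. It gave 8.90 and 8.87 in siMPS1, against 9.25 and 9.23 in siNeg and 9.13 and 9.0 in Control, and fell by 0.36 (SE 0.09, adjusted p = 0.0207), a call that was lost when any 1 of the 4 arrays was left out. At 24 h 10 of the 11 genes had positive changes, with a median of 0.09, and SNRPG, a protein of the Sm ring, was called with a rise of 0.18. At 48 h 7 of the 11 were negative, with a median of -0.06.

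SNRPB, which encodes the Sm ring proteins B and B', gave 9.31 and 9.19 in siMPS1 at 48 h, against 9.77 and 9.74 in siNeg and 9.45 and 9.46 in Control. SNRPF, another protein of the ring, gave 9.27 and 8.95 in siMPS1, against 9.58 and 9.66 in siNeg and 9.27 and 9.29 in Control. For SNRPB the siMPS1 arrays were below all others. For SNRPF they were below siNeg, and the 2 siMPS1 arrays were farther apart than those of the other groups. SNRPB fell by 0.50 relative to siNeg (SE 0.06, adjusted p = 6.93e-06) and by 0.21 relative to Control (adjusted p = 0.0172). SNRPF fell by 0.51 relative to siNeg (SE 0.10, adjusted p = 0.000656), and its change relative to Control was -0.17, which was not called.

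The 2 other SNRP genes called at 48 h encode proteins of the U1 particle and moved in opposite directions relative to siNeg. SNRPA gave 8.35 and 8.36 in siMPS1, against 8.67 and 8.55 in siNeg and 8.18 and 8.25 in Control, so the siMPS1 arrays lay between the control groups. SNRPA fell by 0.25 relative to siNeg (adjusted p = 0.0307), and its change relative to Control was 0.14, which was not called. SNRPC gave 8.85 and 8.63 in siMPS1, against 8.30 and 8.36 in siNeg and 8.41 and 8.47 in Control, above all others, and rose by 0.41 relative to siNeg (SE 0.12, adjusted p = 0.0192). Its change relative to Control, 0.30, was not called. The SNRPC call was lost without siMPS1 replicate 1 or either siNeg array.

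**Figure D3:**
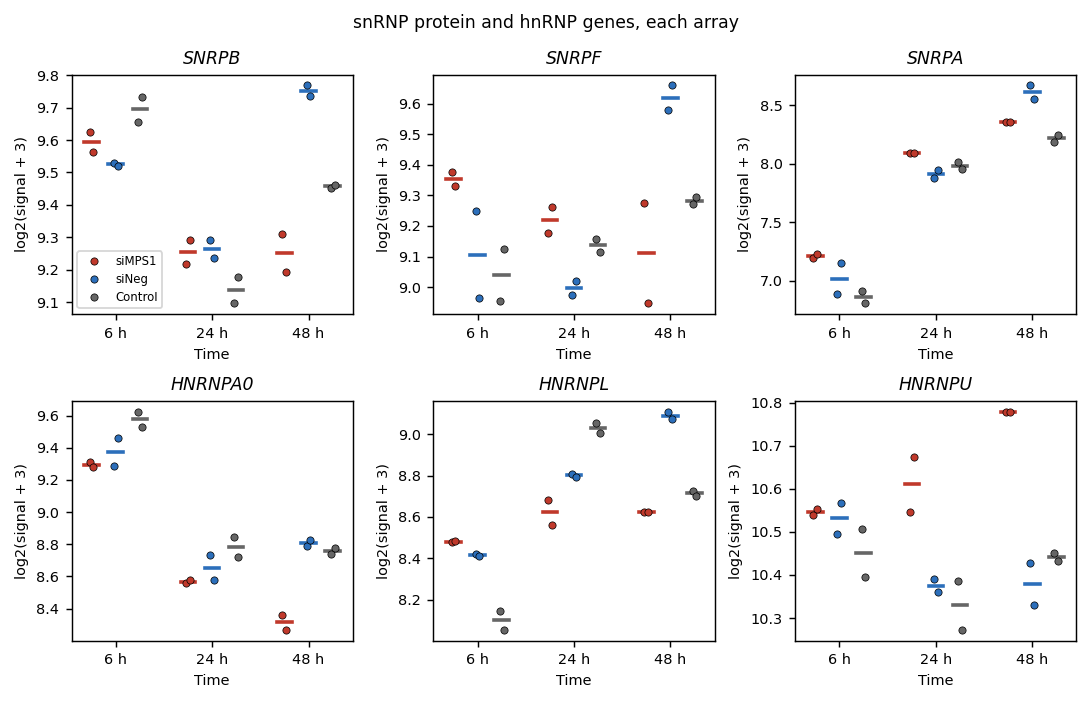
Log2(signal + 3) of 3 SNRP and 3 hnRNP genes on each array (points) with group means (bars), by time, for siMPS1 (left at each time), siNeg and Control; the vertical axes differ between genes and do not start at 0. At 48 h SNRPB, SNRPF, HNRNPA0 and HNRNPL were lower in siMPS1 than in siNeg and HNRNPU was higher, while the Control arrays of SNRPB, SNRPF and HNRNPL lay below those of siNeg.

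Of the 3 SF3A genes, SF3A3 rose at 24 h by 0.26 (adjusted p = 0.0418) and at 48 h by 0.29 (adjusted p = 0.00847) relative to siNeg. At 48 h it gave 8.02 and 8.17 in siMPS1, against 7.84 and 7.77 in siNeg and 7.54 and 7.68 in Control, with all siMPS1 arrays highest, and the rise relative to Control was 0.48 (SE 0.08, adjusted p = 0.000179). The 24 h call was lost without any 1 of 8 of the 18 arrays, the 4 compared among them, with median centring and when the other groups stayed out of the fit, and the 48 h call without replicate 2 of either group. SF3A1 rose at 24 h by 0.32 relative to siNeg (adjusted p = 0.0251), with 8.04 and 8.16 in siMPS1, against 7.79 and 7.76 in siNeg and 7.96 and 8.22 in Control. The siMPS1 arrays of SF3A1 lay inside the range of Control, and the change relative to Control was 0.01. The mean of its probe sets gave 0.04 relative to siNeg, and the call was also lost without siMPS1 replicate 2 or either siNeg array.

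Among the 5 SF3B genes, SF3B4 was called lower relative to siNeg at 24 h and 48 h, and SF3B3 at 48 h, whereas SF3B5 was called higher at 48 h. SF3B4, which contacts the pre-mRNA near the branch site, gave 6.91 and 6.93 in siMPS1 at 48 h, against 7.33 and 7.58 in siNeg and 7.0 and 6.98 in Control. The siMPS1 arrays were just below Control and well below siNeg. SF3B4 fell by 0.54 relative to siNeg (SE 0.11, adjusted p = 0.00109), and its change relative to Control was -0.07, which was not called. At 24 h it fell by 0.36 relative to siNeg (adjusted p = 0.0414), a call lost without any 1 of 10 of the 18 arrays, the 4 compared among them, and under 5 of 9 other settings. SF3B5, the smallest subunit, gave 9.29 and 9.23 in siMPS1 at 48 h, against 9.03 and 8.88 in siNeg and 8.95 and 8.96 in Control, and rose by 0.31 relative to either. The call relative to siNeg was lost without siNeg replicate 2. SF3B3 fell by 0.31 relative to siNeg at 48 h (adjusted p = 0.0214), and its other, dimmer probe set had the opposite sign, with 0.55 relative to siNeg and 0.53 relative to Control. SF3B1, the largest subunit and the one most often mutated in blood disorders, was not called relative to siNeg at any time, and fell by 0.22 relative to Control at 48 h (adjusted p = 0.00611). Its probe sets differed there too, as another gave -0.20 relative to Control and the others 0.83 and 0.70.

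Of the 18 hnRNP genes, 2 were called relative to siNeg at 6 h, 3 at 24 h and 7 at 48 h, 6 of the 7 lower. These were 11.1%, 16.7% and 38.9% of the family, beside 7.70%, 10.9% and 29.2% of all genes, and at 48 h 33.3% were lower, beside 13.5% of all genes. HNRNPA0, which binds AU-rich sequences in mRNAs, gave 8.36 and 8.27 in siMPS1 at 48 h, against 8.79 and 8.83 in siNeg and 8.74 and 8.78 in Control. HNRNPF, which binds runs of G, gave 8.75 and 8.70 in siMPS1, against 9.17 and 9.06 in siNeg and 9.12 and 9.16 in Control. In both genes the siMPS1 arrays were lowest and the siNeg and Control arrays lay close together. HNRNPA0 fell by 0.50 relative to siNeg (SE 0.07, adjusted p = 6.2e-05) and by 0.44 relative to Control. Its other probe set, above the array median on all 18 arrays, gave smaller changes of -0.19 and -0.13. HNRNPF fell by 0.39 relative to siNeg (SE 0.07, adjusted p = 0.000425) and by 0.41 relative to Control.

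HNRNPL, which binds CA repeats, gave 8.62 and 8.63 in siMPS1 at 48 h, against 9.11 and 9.07 in siNeg and 8.73 and 8.70 in Control. Here the Control arrays lay closer to siMPS1 than to siNeg. HNRNPL fell by 0.47 relative to siNeg (SE 0.06, adjusted p = 1.79e-05), and its change relative to Control was -0.09, which was not called. The other 3 hnRNP genes called lower at 48 h had changes between -0.25 and -0.19. HNRNPU, a protein of nuclear RNA and chromatin, gave 10.78 and 10.78 in siMPS1 at 48 h, against 10.43 and 10.33 in siNeg and 10.45 and 10.43 in Control, above all others. It rose by 0.40 relative to siNeg (SE 0.06, adjusted p = 0.000101) and by 0.34 relative to Control. The mean of its 3 probe sets gave -0.20 and -0.038. Another probe set, above the array median on all 18 arrays, gave 0.09 relative to siNeg and 0.08 relative to Control. The remaining one, above the array median on 4 arrays only, gave -1.10 and -0.53.

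At the earlier times HNRNPM, which acts on alternative exons in epithelial and mesenchymal cells, rose by 0.39 at 24 h relative to siNeg (SE 0.06, adjusted p = 0.000351). It gave 10.40 and 10.45 in siMPS1, against 10.03 and 10.04 in siNeg and 10.16 and 10.27 in Control, and rose by 0.21 relative to Control. The mean of its 2 probe sets gave 0.13 relative to siNeg, which was not called. The other probe set was above the array median on 2 arrays only and gave -0.13. HNRNPAB, which binds single-stranded RNA and DNA, rose by 0.24 at both 6 h and 24 h relative to siNeg (adjusted p = 0.02 and 0.013). At 6 h it gave 11.27 and 11.27 in siMPS1, against 11.03 and 11.02 in siNeg and 11.18 and 11.19 in Control. HNRNPR fell at 6 h by 0.25 relative to siNeg (adjusted p = 0.0237), with 10.02 and 10.00 in siMPS1, against 10.18 and 10.34 in siNeg and 10.27 and 10.21 in Control. The HNRNPAB and HNRNPR calls at 6 h were lost without siNeg replicate 2 or either siMPS1 array, and that of HNRNPAB also without siNeg replicate 1. With quantile normalization the 6 h change of HNRNPAB was 0.07 (adjusted p = 0.34), and with the mean of probe sets that of HNRNPR was -0.20 (adjusted p = 0.057). At 24 h HNRNPU rose by 0.24 (adjusted p = 0.0202), and the mean of its probe sets gave 0.03. The HNRNPAB and HNRNPU calls at 24 h were lost without siMPS1 replicate 2 or either siNeg array.

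Whether the effect of the MPS1 siRNA relative to siNeg changed between times was tested as a difference of the fold changes. Between 6 and 24 h it differed for 2 of the 46 genes, beside 3.68% of all genes, 1.88% upward and 1.80% downward, and both shifted upward. They were SRSF6, by 0.41 (SE 0.09, adjusted p = 0.015), and SRSF10, by 0.40 (SE 0.10, adjusted p = 0.0394). Between 24 and 48 h it differed for 12 of the 46, all shifted downward, beside 15.8% of all genes in either direction, 8.94% upward and 6.83% downward. The median difference was -0.17 for the 46 genes and 0.02 for all genes, and 34 of the 46 were negative. The largest were SNRPF, at -0.73 (SE 0.14, adjusted p = 0.00139), SRSF7, at -0.59 (SE 0.08, adjusted p = 0.00012), SNRPB, at -0.49 (SE 0.09, adjusted p = 0.000761), SNRPA, at -0.43 (SE 0.12, adjusted p = 0.0193), and SRSF10, at -0.43 (SE 0.10, adjusted p = 0.00825). The SRSF10 call between 6 and 24 h was lost without any 1 of 9 arrays. That of SRSF6 was lost without siNeg replicate 2 at 24 h, siNeg replicate 1 at 6 h or siMPS1 replicate 2 at 6 h, and that of SNRPA without siNeg replicate 1 at 24 h or replicate 1 of either group at 48 h. With the mean of probe sets the differences of SRSF6 and SRSF10 between 6 and 24 h, 0.29 and 0.32, and that of SRSF7 between 24 and 48 h, -0.24 (adjusted p = 0.103), were not called. Both differences draw on the same 24 h arrays. SRSF3 had differences of -0.01 and 0.03 and was called in neither.

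Relative to Control, siMPS1 cells had 8 of the 46 genes called at 6 h (5 higher, 3 lower), beside a background of 16.6%, 9.29% higher and 7.28% lower. At 24 h 17 were called (14 higher, 3 lower), beside 12.7% of all genes, 5.49% higher and 7.19% lower. At 48 h 16 were called (8 higher, 8 lower), beside 27.5%, 15.3% higher and 12.2% lower. These comparisons use the same siMPS1 arrays as those with siNeg. The split at 6 h depended on scaling. Centring each array on its median moved the median of all genes by -0.20, and 19 of the 46 were called, all lower. Over all genes centring gave 227 higher and 2036 lower at 6 h, so the table as a whole shifted the same way. At 48 h centring gave 5 higher and 8 lower of the 46, beside 863 higher and 1109 lower of all genes. At 24 h all 11 SNRP genes had positive changes, with a median of 0.13, and 3 of them were called, SNRPD2, SNRPD3 and SNRPG, all of the Sm ring. The rises of SNRPG, 0.28 (adjusted p = 0.00227), SRSF6, SRSF7, HNRNPU and HNRNPR were the 5 largest among the genes called at 24 h. HNRNPA3 had a change of 0.46 and was not called. With the mean of probe sets the changes of SRSF7 and HNRNPU were 0.044 and 0.19, neither called, and the rise of SRSF6 was 0.25.

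HNRNPL, HNRNPR and SRSF7 differed from Control in opposite directions at different times. HNRNPL gave 8.48 and 8.48 in siMPS1 at 6 h, against 8.42 and 8.41 in siNeg and 8.14 and 8.05 in Control. At 24 h it gave 8.68 and 8.56 in siMPS1, against 8.81 and 8.80 in siNeg and 9.05 and 9.01 in Control. It rose relative to Control by 0.38 at 6 h and fell by 0.41 at 24 h, with siNeg between the 2 groups at both times. HNRNPR fell by 0.23 relative to Control at 6 h and rose by 0.28 at 24 h. SRSF7 rose by 0.20 at 6 h and by 0.30 at 24 h and fell by 0.21 at 48 h. The 6 h rise of HNRNPL was 0.18 with median centring and 0.23 with the mean of probe sets, and was called with neither. HNRNPA3 showed the largest change relative to Control at 48 h, a rise of 0.76 (SE 0.17, adjusted p = 0.00296), with 7.90 and 7.61 in siMPS1, against 7.18 and 7.67 in siNeg and 7.17 and 6.82 in Control. Its siMPS1 arrays overlapped those of siNeg, and the call was lost without Control replicate 2. The rise was 0.40 with the mean of its probe sets. SNRPA, SNRPF and SRSF7 rose relative to Control at 6 h by 0.36, 0.31 and 0.20, while HNRNPA0 fell by 0.28. With median centring the 6 h changes of SNRPA, SNRPF and SRSF7 were 0.16, 0.12 and 0.0017, none called, and with the mean of probe sets that of HNRNPA0 was -0.11, not called. At 48 h SF3B2 rose by 0.31 and SNRPD1 fell by 0.22. The 6 h calls of SNRPF, SRSF7 and HNRNPR were lost without any 1 of the 4 arrays, that of SNRPA without replicate 2 of either group, and that of HNRNPA0 without Control replicate 1 or siMPS1 replicate 2. Those of HNRNPU and HNRNPR at 24 h were lost without Control replicate 2, and also without siMPS1 replicate 2 for HNRNPU and replicate 1 for HNRNPR. That of SNRPD1 was lost without replicate 2 of either group, and that of SF3B2 without Control replicate 2 or either siMPS1 array.

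In siNeg cells relative to Control, 2 of the 46 genes were called at 6 h, both higher, beside 3.82% of all genes, 2.84% higher and 0.984% lower, and 1 at 24 h, beside 0.933%, 0.460% higher and 0.473% lower. At 6 h they were HNRNPL, 0.32 higher, and SRSF4, 0.28 higher, and the gene at 24 h was HNRNPR, 0.31 higher. With each array centred on its median the 6 h count was 13, all lower, and it shared no gene with those 2. Centring moved the median of all genes by -0.15 in this comparison. Of all genes called at 6 h, 11.5% were then higher, beside 74.2% without centring. The table as a whole thus shifted the same way. At 48 h 9 of the 46 were called (8 higher, 1 lower), beside 12.9% of all genes, 6.82% higher and 6.11% lower. The 5 largest rises were SRSF6 by 0.53 (SE 0.06, adjusted p = 3.5e-05), SF3B4 by 0.46, SF3B3 by 0.46, SNRPA by 0.39 and HNRNPL by 0.38 (adjusted p = 0.000592). SRSF8, an SR protein gene that arose as a copy of SRSF2, fell by 0.44, with 7.99 and 7.66 in siNeg, against 8.38 and 8.16 in Control. Without 1 array the calls of HNRNPL and HNRNPR and, in 14 of 18 fits, of SRSF4 were lost at the earlier times, and at 48 h those of SF3B3 (Control replicate 1), SF3B4 (replicate 2 of either group), SNRPA (replicate 1 of either group) and SRSF8 (Control replicate 1 or siNeg replicate 2). With the mean of probe sets the changes of SF3B3 and SRSF8 at 48 h were 0.22 and -0.25 and that of HNRNPL at 6 h was 0.045, none of them called. SNRPB, SNRPF and HNRNPA1 rose by 0.30, 0.34 and 0.21 at 48 h, so that 7 genes called lower in siMPS1 than in siNeg at that time (SNRPA, SNRPB, SNRPF, SF3B3, SF3B4, HNRNPL and HNRNPA1) were also higher in siNeg than in Control, in comparisons that share the siNeg arrays. The same overlap was not counted over all genes, so these 7 have no background. SRSF3, by contrast, showed differences between siNeg and Control of -0.02, 0.02 and 0.13 at 6, 24 and 48 h, none of them called.

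The level of these genes also differed with time in cells that were not transfected. Between 6 and 24 h 20 of the 46 were called in Control (5 higher, 15 lower at 24 h), beside 43.1% of all genes, 27.1% higher and 15.9% lower. Centring each array on its median gave 3 higher and 21 lower, with a shift of -0.16 in the median of all genes, and quantile normalization gave 9 and 15. Over all genes centring gave 1296 higher and 1937 lower, and quantile normalization 1794 and 1428. SNRPA rose by 1.12 (SE 0.08, adjusted p = 5.91e-09), with arrays at 8.01 and 7.95 at 24 h, against 6.91 and 6.81 at 6 h. HNRNPL rose by 0.93 and HNRNPUL2 by 0.66. HNRNPH3 fell by 0.91, SRSF6 by 0.90, HNRNPA0 by 0.80, SRSF10 by 0.75 and HNRNPF by 0.62, and in each the 24 h arrays lay below the 6 h arrays. HNRNPH3 fell by 0.22 (adjusted p = 0.0301) and SRSF6 by 0.50 with the mean of probe sets.

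Between 24 and 48 h 13 of the 46 were called in Control (7 higher, 6 lower at 48 h), beside 19.6% of all genes, 8.0% higher and 11.6% lower. Of the 7 higher, 6 were SNRP genes, and all 11 SNRP genes had positive changes, with a median of 0.23, beside -0.05 for all genes. Their changes ran from 0.14 to 0.39, and SNRPD1, SNRPD3, SNRPB and SNRPB2, at 0.39, 0.34, 0.32 and 0.29, were among the 5 largest rises, together with HNRNPF at 0.34. Centring each array gave 21 higher and 3 lower, with a shift of 0.14 in the median of all genes, and quantile normalization gave 5 and 8. Over all genes centring gave 1421 higher and 396 lower, and quantile normalization 691 and 773. HNRNPA3 fell by 1.10 (SE 0.17, adjusted p = 0.000229) and SRSF6 by a further 0.57 (adjusted p = 1.12e-05). The SNRPB2 rise was lost with quantile normalization and without Control replicate 2 at 24 h or either Control array at 48 h, and that of HNRNPF without Control replicate 1 at 24 h. The 2 steps share the 24 h arrays.

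**Figure D4:**
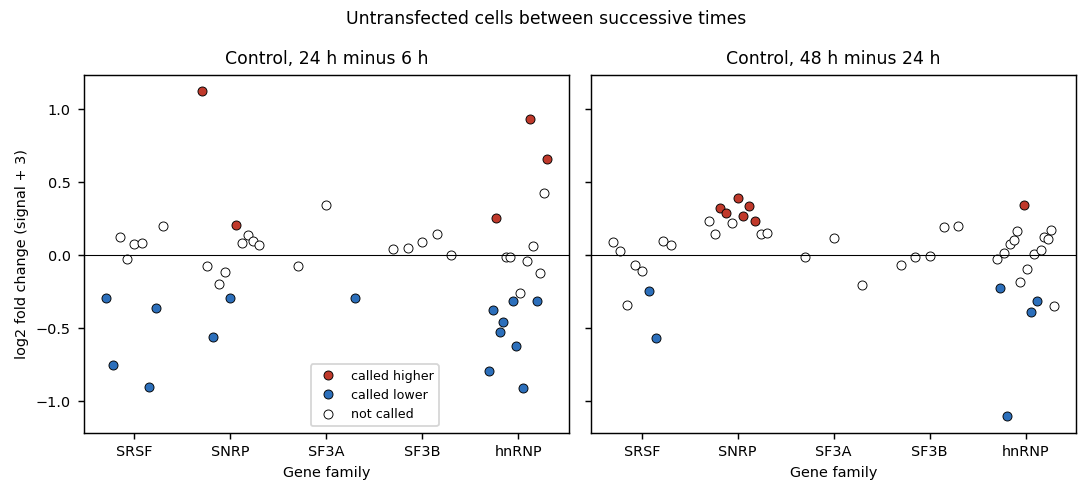
Log2 fold changes of the 46 genes in Control cells for 24 h minus 6 h and for 48 h minus 24 h, 1 point per gene in columns by family; filled points were called. The SNRP column of the second panel lies wholly above 0, between 0.14 and 0.39, and the hnRNP column of the first panel holds 8 called lower genes and 3 called higher genes.

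Of the 46 genes, 30 had more than 1 probe set, up to 6, and these did not always move together. For 27 genes, 76 probe sets were above the array median on all 18 arrays. All probe sets of a gene had the same sign relative to siNeg in 12 of the 27 genes at 6 h, 15 at 24 h and 14 at 48 h. The median spread between the highest and the lowest probe set of a gene was 0.22 at 6 h, 0.22 at 24 h and 0.34 at 48 h, in log2 units. The widest at 48 h was SF3B1, with a spread of 1.40. The probe set used and another gave -0.14 and -0.15 relative to siNeg, and the other 2 gave 1.25 and 1.12. SRSF10 had 4 probe sets, all lower at 48 h, at -0.25, -0.85, -0.73 and -0.30. HNRNPH1 gave 0.22 with the probe set used and -0.73 and -1.13 with others, and SRSF11 gave -0.08 with the one used and 0.47 and 1.05 with others. The RNA measures given above for the siMPS1 arrays at 48 h moved at the same time, and their part in these spreads was not tested.

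**Figure D5:**
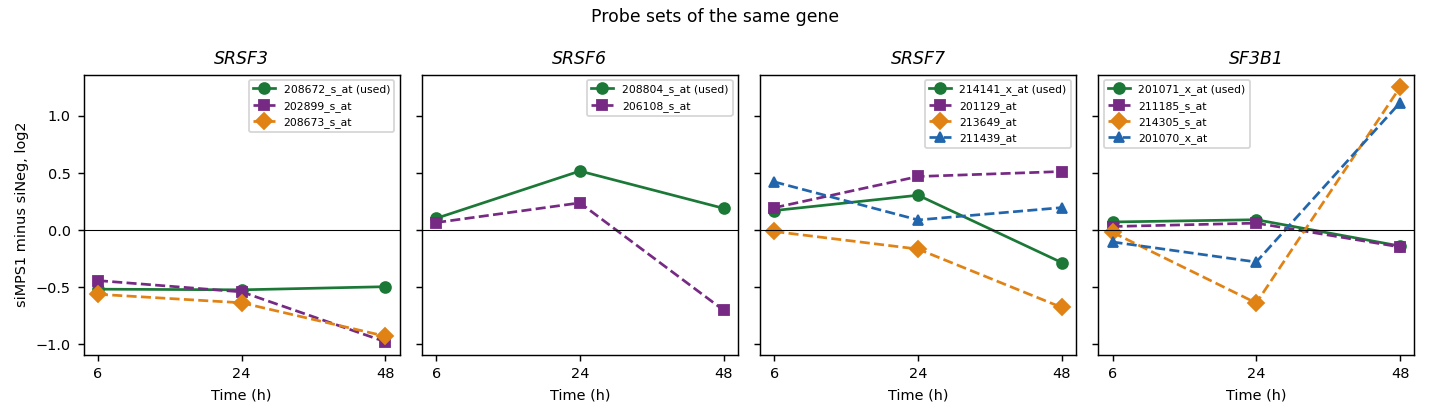
Log2 fold change of siMPS1 minus siNeg at 6, 24 and 48 h for every probe set (lines) of SRSF3, SRSF6, SRSF7 and SF3B1; the solid line is the probe set used. The 3 probe sets of SRSF3 stay between -0.98 and -0.44, whereas those of SRSF6 end at 0.19 and -0.70 and those of SF3B1 spread from -0.15 to 1.25 at 48 h.

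Other genes of the splicing pathway, in 5 lists written from general knowledge, were counted in the same fit. The shares of all genes called relative to siNeg, 7.70% at 6 h, 10.9% at 24 h and 29.2% at 48 h, are the background for their counts too. By direction, 3.45% were higher and 4.25% lower at 6 h, 5.14% and 5.81% at 24 h, and 15.7% and 13.5% at 48 h. Of 47 further genes in a list of core spliceosome and LSM proteins, 6 were called relative to siNeg at 6 h (4 higher, 2 lower), 5 at 24 h (1 higher, 4 lower) and 18 at 48 h (6 higher, 12 lower), with medians of 0.01, -0.02 and -0.05. These counts were 12.8%, 10.6% and 38.3% of the list. LSM1, which is no part of the spliceosome but belongs to the cytoplasmic ring that binds mRNAs before decay, fell at all 3 times, by 0.46, 0.69 and 0.66. SF1, which binds the branch site, and PRPF19, a ubiquitin ligase of the spliceosome, rose at 48 h by 0.76 and 0.51. Of 43 splicing regulators, 8 were called at 6 h (5 higher, 3 lower), 9 at 24 h (7 higher, 2 lower) and 16 at 48 h (13 higher, 3 lower), or 18.6%, 20.9% and 37.2% of the list. Their median changes were 0.01, -0.02 and 0.05. SRRM2, a large scaffold protein of nuclear speckles, SCAF11 and CELF1 rose at 48 h by 0.99 (adjusted p = 9.34e-08), 0.73 and 0.49.

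Of 7 kinases that phosphorylate SR proteins, 2 were called at 6 h (both lower), 1 at 24 h (lower) and 3 at 48 h (2 higher, 1 lower). These counts were 28.6%, 14.3% and 42.9% of the list. CLK3 fell at 24 h by 0.47 and at 48 h by 0.30, and SRPK2 and DYRK1A rose at 48 h by 0.40 and 0.25. Relative to Control at 48 h SRPK2 rose by 0.35 (adjusted p = 0.0226), while DYRK1A had a change of 0.03, which was not called, and was 0.22 lower in siNeg than in Control (adjusted p = 0.0316). Of 13 genes of snRNP assembly, 1 was called at 6 h (higher), 1 at 24 h (higher) and 4 at 48 h, all lower, with a median of -0.11 at 48 h. These counts were 7.69%, 7.69% and 30.8% of the list. Among the 4 called at 48 h, PRMT5, the enzyme that methylates Sm proteins, fell by 0.44 (adjusted p = 0.000425), its partner CLNS1A by 0.35 and the cap-binding NCBP1 by 0.42. Relative to Control at 48 h 0 of the 13 were called, beside 27.5% of all genes. In limma 4 of the 13 had an unadjusted p under 0.05. The changes were then -0.18 for PRMT5, -0.19 for CLNS1A and -0.29 for NCBP1, and PRMT5 was itself 0.26 higher in siNeg than in Control (adjusted p = 0.0393). Of 8 genes of the exon junction complex and nonsense-mediated decay, 0 were called at 6 h in limma, and 1 had an unadjusted p under 0.05. In that list 1 was called at 24 h, RBM8A, which fell by 0.37, and 1 at 48 h, SMG5, which rose by 0.81. Each count was 12.5% of the list. SMG6 had a change of 0.99 at 48 h with an SE of 0.43 and was not called.

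Promoter sequences were at hand for 43 of the 46 genes, with 63 entries in all since 14 genes had several. The 7 motifs were searched on both strands, and no motif contained another. The core that ETS factors bind, CCGGAAG, was found in 28.57% of the 63 entries, against 10.26% of the 35116 promoters of the same length in the table, and in 16 genes, among them SRSF4, SRSF5, SF3B4 and SNRPB. The letters CCAAT, which nuclear factor Y binds, were found in 39.68% of the entries, against 34.61% of all promoters. The TATA box, searched as TATAAA, was found in 11.11%, against 11.53%, and SRSF3 was 1 of 7 genes that had it. The E-box, searched as CACGTG, was found in 14.29%, against 7.26%, and the GC box, searched as GGGCGG, in 53.97%, against 44.95%. The core of the cAMP response element, searched as TGACGT, was found in 11.11%, against 7.98%. The cell cycle homology region, searched as TTTGAA, was found in 9.52%, against 15.16%.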

How the data were processed

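The deposited table held values of 22277 probe sets on 18 arrays. Per the submitters' processing notes the signals were made with MAS5, and the deposited values were taken as log2 signals, since 2 raised to them gave a trimmed mean between 100.122 and 100.134 on every array. The log base is therefore inferred. Raw array files were not used here.

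Of the probe sets, 62 were controls, 19064 named 1 gene, 1043 several and 2108 none; 19052 matched RefSeq by gene identifier, with 0 symbols changed. A pseudocount of 3 was added to the linear signals and log2 taken, with no further scaling. The 40% of probe sets with the lowest means were left out and the highest of each gene was kept. Group means were fitted with limma 3.58.1 in R 4.3.3 to all 18 arrays (9 residual degrees of freedom, intensity trend in the variance prior), with two-sided moderated tests and Benjamini-Hochberg adjustment over 7828 genes in each comparison. The number of arrays limits the precision. The procedure was tested on simulated data.

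Genes named were, by rule, up to 8 called in each direction in siMPS1 minus siNeg at each time, up to 5 in other comparisons and the 3 with the smallest p of each list at 48 h; others are named to complete short counts. The genes, lists and rule were chosen with earlier results of these data known. Alternatives were pseudocounts of 1 and 11, quantile normalization, median centring, no filter, the mean of a gene's probe sets, no intensity trend, a replicate block, only the compared groups, and leaving out each array.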

Additional observations from a re-analysis of the deposited data

Results flagged for a closer look

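Some genes showed an effect of the MPS1 siRNA, relative to siNeg, that differed between times by the test of that difference in limma, with Benjamini-Hochberg adjustment over all genes. From 6 to 24 h the change of SRSF6 moved up by 0.41 (SE 0.09, adjusted p = 0.015), as it was 0.52 at 24 h and 0.10 at 6 h, and that of SRSF10 by 0.40 (SE 0.10, adjusted p = 0.0394), as it was 0.18 at 24 h and -0.22 at 6 h. Neither was called with the mean of probe sets or with no intensity trend, and SRSF10 was kept under only 4 of 9 alternatives. Both calls were also lost without some single arrays, as given above. From 24 to 48 h 12 genes were called, all shifted downward, and the 5 with the largest shifts are given here. SNRPF had a difference of -0.73 (SE 0.14, adjusted p = 0.00139), with changes of -0.51 at 48 h and 0.22 at 24 h. SRSF7 had a difference of -0.59 (SE 0.08, adjusted p = 0.00012), with -0.28 at 48 h and 0.31 at 24 h, and 1 of its other probe sets was positive at both times, at 0.51 and 0.47. With the mean of its probe sets the difference was -0.24 (adjusted p = 0.103). SNRPB had a difference of -0.49 (SE 0.09, adjusted p = 0.000761), with -0.50 at 48 h and -0.01 at 24 h. SNRPA had a difference of -0.43 (SE 0.12, adjusted p = 0.0193), with -0.25 at 48 h and 0.18 at 24 h. SRSF10 had a difference of -0.43 (SE 0.10, adjusted p = 0.00825), with -0.25 at 48 h and 0.18 at 24 h.

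In SNRPF, SNRPB and SNRPA the siNeg arrays at 48 h were higher than Control by 0.34, 0.30 and 0.39. The 3' to 5' ratio of ACTB was higher by far in siMPS1 at 48 h than in any other group, at 0.90 on the log2 scale, and its part in these differences was not tested.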

How the results depend on the processing

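Of 93 results for a named gene in a comparison, covering 34 of the 46 genes, 50 kept their direction and call under all 9 alternatives, 53 in all 18 fits without 1 array, and 42 in all of these. SRSF3 at all 3 times and SRSF4 at 24 and 48 h were among them. With the mean of probe sets, 3 reversed: HNRNPU at 48 h, to -0.20 relative to siNeg and -0.038 relative to Control, and SRSF6 at 48 h relative to siNeg, to -0.25. For HNRNPU the mean included a probe set that was above the array median on 4 arrays only. The cause of the reversals was not tested. Of the 93, the mean of probe sets ended 19 calls and moved 10 others by over 1.5 times. The calls lost numbered 25 with no intensity trend, 17 with median centring, 8 with the compared groups alone, 5 with no filter, 3 with quantile normalization and 0 with a pseudocount of 1 or 11.

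The counts of the 46 genes called in limma moved by over 1.5 times in these cases. Counts over all genes, higher and lower, follow in the same order. With no intensity trend siMPS1 against siNeg gave 1 at 6 h and 5 at 24 h, siMPS1 against Control 5 at 6 h and 10 at 24 h, siNeg against Control 1 at 6 h and 0 at 24 h (8 at an unadjusted p under 0.05), and the difference between 24 and 6 h 0 (8 unadjusted). Over all genes siMPS1 gave 47 and 122, and 285 and 340, against siNeg. Against Control siMPS1 gave 519 and 364, and 298 and 452, and siNeg gave 125 and 20, and 1 and 2. The difference gave 62 and 74 over all genes. With only the compared groups, siMPS1 gave 7 against siNeg and 10 against Control at 24 h, and siNeg against Control 6 at 6 h. Over all genes these were 237 and 265, 254 and 344, and 256 and 107. Median centring gave 19 for siMPS1 and 13 for siNeg against Control at 6 h, 2 for siNeg against Control at 24 h, 1 for the difference between 24 and 6 h and 24 for Control between 48 and 24 h. The matching shifts over all genes at 6 h are given above. Quantile normalization gave 3 for siNeg against Control at 24 h, where the mean of probe sets gave 2, and at 6 h that mean gave 5. Over all genes these were 41 and 45, 49 and 62, and 253 and 92. No filter gave 1 for siNeg against Control at 6 h and 1 for the difference between 24 and 6 h. Over all genes, with more of them tested, these were 147 and 48, and 105 and 111.

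Leaving out each array in turn gave 1 to 9, 6 to 12 and 12 to 20 genes for siMPS1 against siNeg at 6, 24 and 48 h, with the lowest counts without siMPS1 replicate 2 at 6 h, without either siNeg array or siMPS1 replicate 2 at 24 h, and without siMPS1 replicate 1 at 48 h. Against Control, siMPS1 gave 3 to 8, 7 to 19 and 11 to 17, and siNeg 0 to 5, 0 to 1 and 6 to 9. The differences gave 0 to 3 and 7 to 13, and Control gave 18 to 23 between 24 and 6 h and 8 to 15 between 48 and 24 h. In the fits with a count of 0, between 5 and 16 genes had an unadjusted p under 0.05. In such fits the lone array of a group is assumed to vary like the others.

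With the replicate number as a block, 2 of the 93 calls were lost, SF3A3 at 24 h relative to siNeg (adjusted p = 0.05 after rounding) and SRSF4 at 6 h in siNeg relative to Control (adjusted p = 0.0564), and the count was 1 for siNeg against Control at 6 h and within 1.5 times the reported count elsewhere, with 7, 11 and 19 for siMPS1 against siNeg. The numbers did not pair the arrays: deviations of same-numbered arrays correlated from -0.14 to 0.10 between groups, above 0.1 in 1 of 36 pairs of groups.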
